A study of Arabidopsis thaliana with 90 samples.

Results

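The 5 phytochrome genes of Arabidopsis thaliana, PHYA (AT1G09570), PHYB (AT2G18790), PHYC (AT5G35840), PHYD (AT4G16250) and PHYE (AT4G18130), were followed through 90 RNA-seq libraries of etiolated seedlings. They were taken by their identifiers from a table of raw read counts that lists 28775 genes, and all 5 passed the filter on low counts that left 20695 genes for testing. The libraries cover 5 lines at 17 or 27 °C, either in darkness or after 1 or 24 h of red light (R), with 3 replicates for each of the 30 groups. All lines are in the Landsberg erecta ecotype. PHYD-YFP/abcde is the quintuple mutant phyA-201 phyB-1 phyC-1 phyD-1 phyE-1 (abcde) with PHYD fused to YFP under the constitutive viral 35S promoter. PHYD-YFP/abCde carries the same transgene, brought in by crossing, in phyA-201 phyB-1 phyD-1 phyE-1, in which PHYC is intact. The aBcde line is phyA-201 phyC-1 phyD-1 phyE-1, has native PHYB as its sole functional phytochrome gene and carries no transgene. PHYB-CFP/abcde has PHYB fused to CFP under the PHYB promoter in the quintuple mutant, and the line with both transgenes, labelled PHYB-CFP, PHYD-YFP/abcde, has PHYB-CFP and PHYD-YFP in that mutant. Where values of several lines follow each other in the line order, they belong first to PHYD-YFP/abcde, next to PHYD-YFP/abCde, then to aBcde, after it to PHYB-CFP/abcde and last to the line with both transgenes.

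The same mutant alleles of PHYA, PHYE and native PHYD are therefore shared by all 5 lines, so reads of PHYA and PHYE come from genes that make no functional photoreceptor. Native PHYB is mutant in every line but aBcde, and PHYC in every line but PHYD-YFP/abCde. Reads of the coding part of a transgene are counted on the native gene, so the PHYB count of the PHYB-CFP lines and the PHYD count of the PHYD-YFP lines sum mutant gene and transgene. PHYD-YFP/abcde is 1 line, chosen for its high expression of the transgene, from which PHYD-YFP/abCde was made by crossing, and each library holds RNA of many pooled seedlings. In such bulk samples, fewer cells of a type and less RNA per cell cannot be told apart.

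Phytochromes are dimeric photoreceptors with a bilin chromophore bound to a cysteine. R converts the inactive Pr form to the active Pfr form, which enters the nucleus, binds PHYTOCHROME INTERACTING FACTORS (PIFs) and changes transcription, and Pfr falls back to Pr faster when it is warm. phyA is the light-labile phytochrome of etiolated seedlings and senses very weak light and far-red light, whereas phyB to phyE are more stable and mediate reversible R responses. phyB is the main one of these in seedlings, phyD is its closest relative, and phyC can form dimers with other type II phytochromes. PHYA transcript is known to be abundant in etiolated tissue and to decline in the light.

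The stretch of coding sequence around the chromophore-binding cysteine is shown first because all 5 genes have this site. It shows how they differ from PHYB there, and not how close the whole genes are. It was read from the TAIR10.1 genome on the coding strand, 5′ to 3′, with the codon of the cysteine in capitals, and in each gene it lies in an exon at chromosome 1:3098233-3098265, 2:8141132-8141164, 5:14008985-14009017, 4:9198392-9198424 and 4:10044968-10045000, in the order PHYA to PHYE.
PHYA: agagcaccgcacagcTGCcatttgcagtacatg
PHYB: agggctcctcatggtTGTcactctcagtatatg
PHYC: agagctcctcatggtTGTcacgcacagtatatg
PHYD: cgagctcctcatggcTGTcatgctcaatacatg
PHYE: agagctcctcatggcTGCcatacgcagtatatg
The cysteine is residue 323 of PHYA, 357 of PHYB, 318 of PHYC, 360 of PHYD and 322 of PHYE in the annotated proteins. Over these 33 bases PHYC differs from PHYB at 3 positions, PHYE at 6, PHYD at 7 and PHYA at 11.

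Across the whole coding sequence PHYB and PHYD are the closest pair, with 80.7% identical bases and 82.4% identical residues over the aligned positions. The other 9 pairs have 60.9 to 67.2% identical bases. The longest run of bases that PHYB and PHYD share is 43 bases long and lies in exons of both genes, at 2:8142024-8142066 and 4:9197487-9197529. It is shown because a read shorter than this run could not be told apart between the pair.
PHYB and PHYD: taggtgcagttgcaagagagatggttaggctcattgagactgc
The longest run shared by any other pair has 26 bases. The setting for reads that map to several places is not given in the sources used here, so sharing of reads between PHYB and PHYD cannot be read from the counts directly.

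In TAIR10.1, PHYA spans 1:3095160-3100819 on the minus strand, PHYB 2:8139756-8144461 and PHYC 5:14007812-14011848 on the plus strand, and PHYD 4:9195247-9199840 and PHYE 4:10042137-10046346 on the minus strand. The annotated start of PHYE overlaps the end of AT4G18140 on the same strand, so reads in that overlap could not be assigned to one gene, and the PHYE count is less certain than the others in this respect. No annotated gene overlaps the other 4. The 250 bases before each annotated start were searched on both strands for CACGTG, the G-box that PIFs and other light-signaling factors can bind. It occurred at 2 places before PHYB and at 1 place before PHYD, and at none before PHYA, PHYC and PHYE. Of 27444 promoters of the same length, 6.5% hold it. The surroundings of these matches are shown because the PHYB-CFP transgene is under the PHYB promoter and PHYB responded to R in the lines described below.
PHYB, 2:8139600-8139670, plus strand: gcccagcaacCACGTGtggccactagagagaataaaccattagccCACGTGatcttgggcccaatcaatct
PHYD, 4:9199890-9199925, minus strand: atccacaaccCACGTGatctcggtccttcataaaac
The capitals mark the G-box, which lies 146 and 111 bases before the annotated start of PHYB and 75 bases before that of PHYD. The match nearer to PHYB and the one before PHYD sit in a run of 12 bases that both genes share. The evening element AAAATATCT, a motif of clock-regulated genes, occurred in none of the 5 windows and in 2.4% of all promoters. The short motif GATAA, the core of the I-box of light-regulated promoters, occurred once before PHYA, PHYB and PHYE, against 54.9% of all promoters with at least 1 match. A match is no evidence of binding.

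The smallest library had 15010386 reads assigned to genes, the median one 17751738 and the largest 41124234. No 2 replicates held identical values. Levels are in CPM (counts scaled to one size of library) with TMM-scaled library sizes, a measure of the number of reads relative to the whole library that is not corrected for gene length. Each comparison came from 1 edgeR quasi-likelihood model of all 90 libraries with 30 group means and 60 residual degrees of freedom. Adjusted p-values are Benjamini-Hochberg values over all 20695 tested genes, and a gene was called where the adjusted p was under 0.05. Ratios of levels are given with their 95% confidence interval or as log2 values ± standard error (SE). The labels do not say whether replicates were grown apart, so p-values measure the spread between these samples only. Each call was repeated with replicate 1, 2 or 3 of all groups left out, and a call is said to hold without each replicate number where it passed in all 3 cases. A permutation of 3 against 3 libraries cannot give p under 0.1, which is why the p-values come from the model. PIL1 (AT2G46970), a rapid target of phytochrome signaling, was lower after R in all 20 comparisons with darkness, which places a response to R in every line. Organ identity genes of flowers, AG and AP3, did not exceed 0.554 and 0.989 CPM.

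Per kilobase of coding sequence, a scale on which levels of different genes can be compared, PHYA was the highest phytochrome transcript wherever no transgene added reads. Its group means ran from 41.3 to 385 CPM per kb over all 30 groups. PHYB ran from 14.3 to 47.4 CPM per kb in the 18 groups without PHYB-CFP and from 76.4 to 447 in the 12 with it. PHYC and PHYE were low and close together, at 9.49 to 14.7 and 5.96 to 14.1 CPM per kb. PHYD ran from 3.68 to 60.4 CPM per kb without PHYD-YFP and reached 1184 to 10000.0 with it. The 60.4 rests on 1 library of aBcde with high PHYD, and without the 10 such libraries described below for that gene the highest group was at 5.88 CPM per kb. PHYA exceeded PHYB in 18 of 18 groups without PHYB-CFP and in 6 of 12 with it. PHYB exceeded PHYC in 30 of 30 groups, and PHYC exceeded PHYE in 25 of 30.

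**Figure D1:**
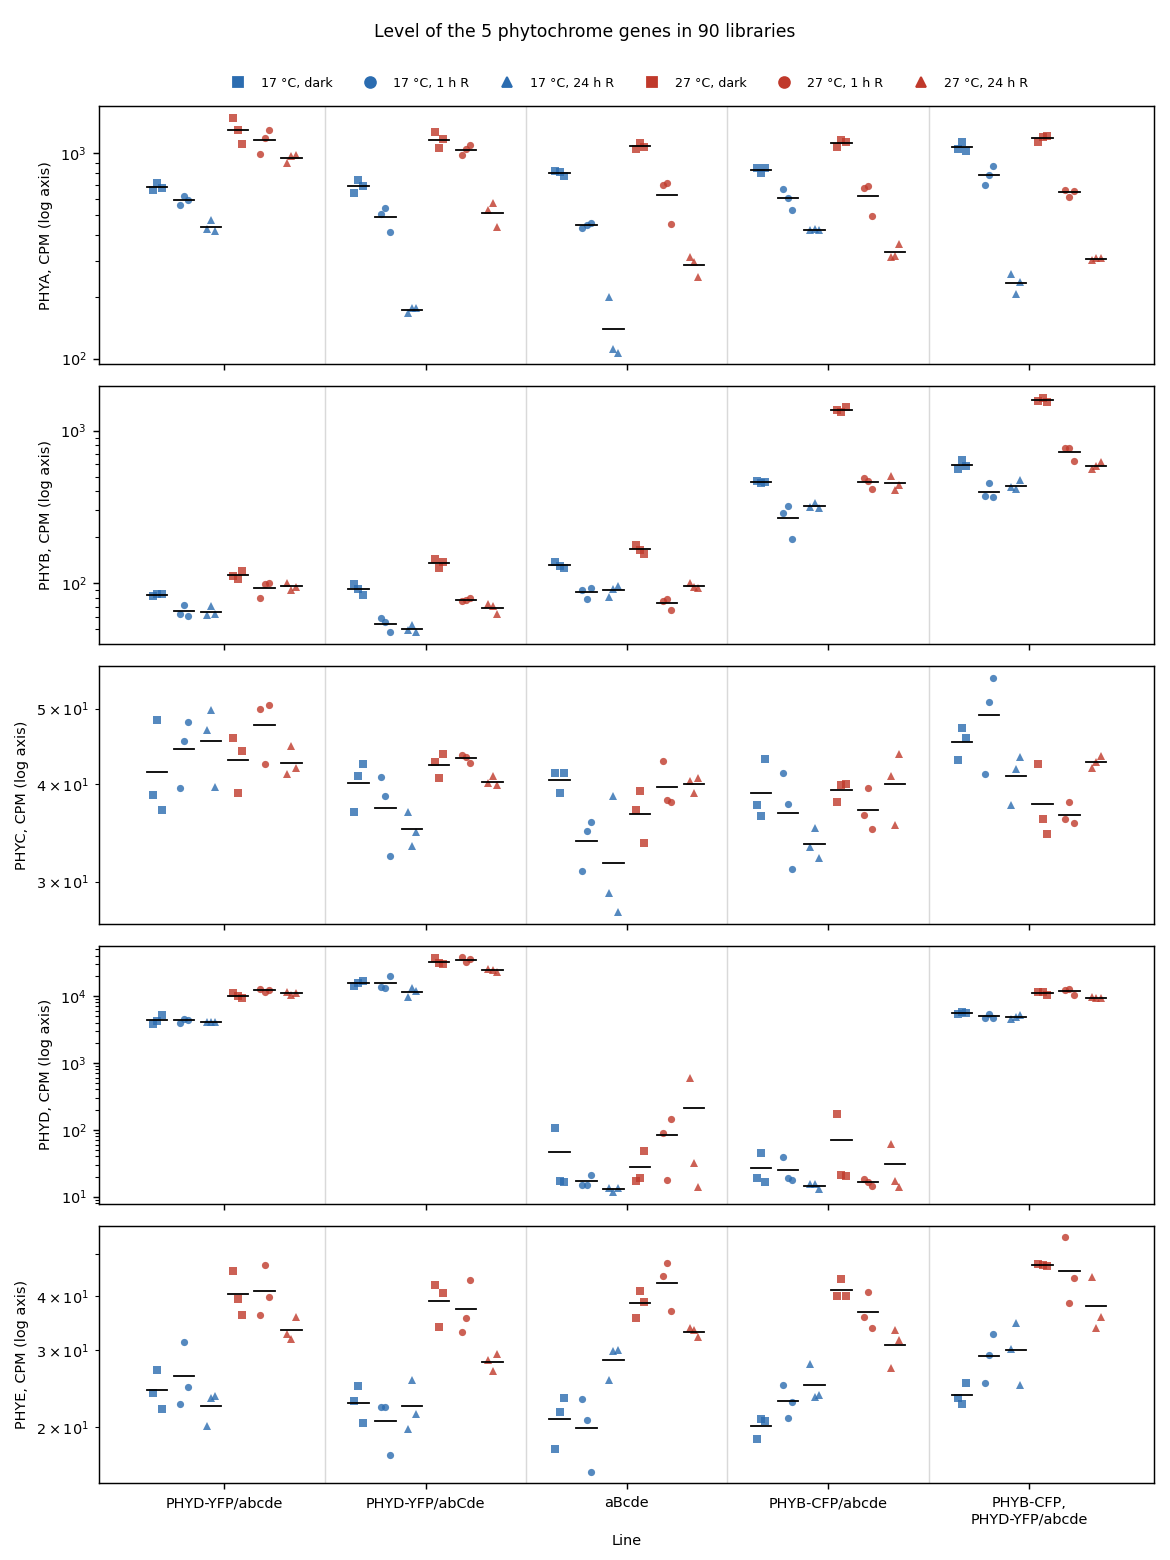
Level of PHYA, PHYB, PHYC, PHYD and PHYE in CPM (log axes) in each of the 90 libraries, by line. Squares are darkness, circles 1 h R and triangles 24 h R, blue is 17 °C and red 27 °C, and black bars are group means. PHYA spreads over 107 to 1482 CPM and falls with R in every line, PHYB and PHYD stand higher in the lines with their transgene, and PHYC keeps within 27.4 to 54.8 CPM.

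When the 30 group means of a gene were put in order, the lowest and highest differed 9.32-fold for PHYA, 31.2-fold for PHYB, 1.55-fold for PHYC, 2719-fold for PHYD and 2.37-fold for PHYE. Most neighbors in these orders were not separated by their replicates. Of 29 neighboring pairs of groups, the libraries overlapped in 25 for PHYA, 19 for PHYB, 24 for PHYD and in all 29 for PHYC and PHYE. PHYA was highest in PHYD-YFP/abcde in darkness at 27 °C (1298 ± 185 CPM, mean ± SD, n = 3) and lowest in aBcde after 24 h R at 17 °C (139 ± 51.5 CPM). PHYB was highest in the line with both transgenes in darkness at 27 °C (1574 ± 54.9 CPM) and lowest in PHYD-YFP/abCde after 24 h R at 17 °C (50.4 ± 2.90 CPM).

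PHYA transcript fell after 24 h R in all 5 lines and at both temperatures, to between 0.174 and 0.731 of the dark level. At 17 °C the fall was deepest in aBcde and shallowest in PHYD-YFP/abcde. The dark libraries of the latter line at 17 °C had 662, 715 and 677 CPM and those after 24 h R 427, 473 and 419 CPM. PHYD-YFP/abCde went from 642, 738 and 691 CPM to 167, 176 and 176 CPM. For aBcde the values were 816, 808 and 772 CPM in darkness and 199, 112 and 107 CPM after 24 h R. The irradiated libraries lay below the dark ones in each of these lines, with replicate 1 of aBcde higher than its 2 partners. PHYB-CFP/abcde went from 844, 801 and 846 CPM to 421, 429 and 423 CPM, and the line with both transgenes from 1049.7, 1139 and 1027 CPM to 257, 207 and 236 CPM. Here too no irradiated library reached a dark one. The ratios of 24 h R to darkness at 17 °C were 0.642 (95% interval 0.531 to 0.775) in PHYD-YFP/abcde, 0.25 (0.206 to 0.305) in PHYD-YFP/abCde, 0.174 (0.143 to 0.213) in aBcde, 0.511 (0.423 to 0.618) in PHYB-CFP/abcde and 0.218 (0.179 to 0.265) in the line with both transgenes. All 5 were called, with edgeR adjusted p between 2.66e-23 and 0.000655.

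At 27 °C every dark library held at least 1044 CPM of PHYA, and the level again fell with 24 h R. The libraries of PHYD-YFP/abcde had 1482, 1302 and 1112 CPM in darkness and 893, 969.7 and 984 CPM after 24 h R, and those of PHYD-YFP/abCde 1264, 1058 and 1167 CPM and 527, 569.6 and 439 CPM. In aBcde they had 1044, 1122 and 1076 CPM and 312, 295 and 250.3 CPM. PHYD-YFP/abcde kept the highest irradiated level of the lines. PHYB-CFP/abcde had 1076, 1158 and 1137 CPM and 313, 315 and 363 CPM, and the line with both transgenes 1136, 1197 and 1214 CPM and 301, 309 and 307 CPM. The lines with PHYB or PHYB-CFP thus ended between 250.3 and 363 CPM, all below the 439 to 984 CPM of both PHYD-YFP lines without PHYB-CFP. The ratios to darkness were 0.731, 0.44, 0.264, 0.294 and 0.259 in the line order, and all 5 were called, with edgeR adjusted p between 2.66e-18 and 0.0314. The call of PHYD-YFP/abcde did not hold without replicate 1 (edgeR adjusted p = 0.372) or without replicate 2 (0.264).

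After 1 h R the changes of PHYA were smaller. They passed the test in aBcde at both temperatures (ratios 0.558 and 0.576 at 17 and 27 °C), in PHYB-CFP/abcde and the line with both transgenes at 27 °C (0.553 and 0.545) and in PHYD-YFP/abCde at 17 °C (0.705, edgeR adjusted p = 0.0186). The last call was not stable: without replicate 3 of that irradiated group, which held 415 CPM against 505 and 541 CPM, the log2 ratio went from -0.50 to -0.40 and the adjusted p was 0.404. It was also lost without replicate 2 of all groups (adjusted p = 0.14), in a fit of its 6 libraries alone (0.85) and in a model of 54 libraries of 3 lines (0.0725). In aBcde at 27 °C the libraries after 1 h R were uneven, from 449.8 to 715.3 CPM with a median of 703 CPM. Without the 10 libraries of high PHYD described below, only replicate 2 of that group remained, and the log2 ratio to darkness was -0.60. In PHYD-YFP/abcde the ratios after 1 h R were 0.862 (0.714 to 1.04) and 0.889 (0.736 to 1.07), neither called. PHYA was called lower in 15 of 20 comparisons with darkness in all, and 13 of these calls held without each replicate number. Over all tested genes, the share called after 1 h R was 0.0676, 6.24, 23.1, 0.744 and 1.18% at 17 °C and 0.72, 0.445, 4.32, 5.56 and 8.3% at 27 °C, in the line order. After 24 h R it was 11.9, 34.1, 43.7, 25.7 and 37.8% at 17 °C and 7.28, 30.2, 35.7, 31.9 and 27.8% at 27 °C again in the line order. All 10 PHYA calls at 24 h stand against these backgrounds of 7.28 to 43.7%.

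**Figure D2:**
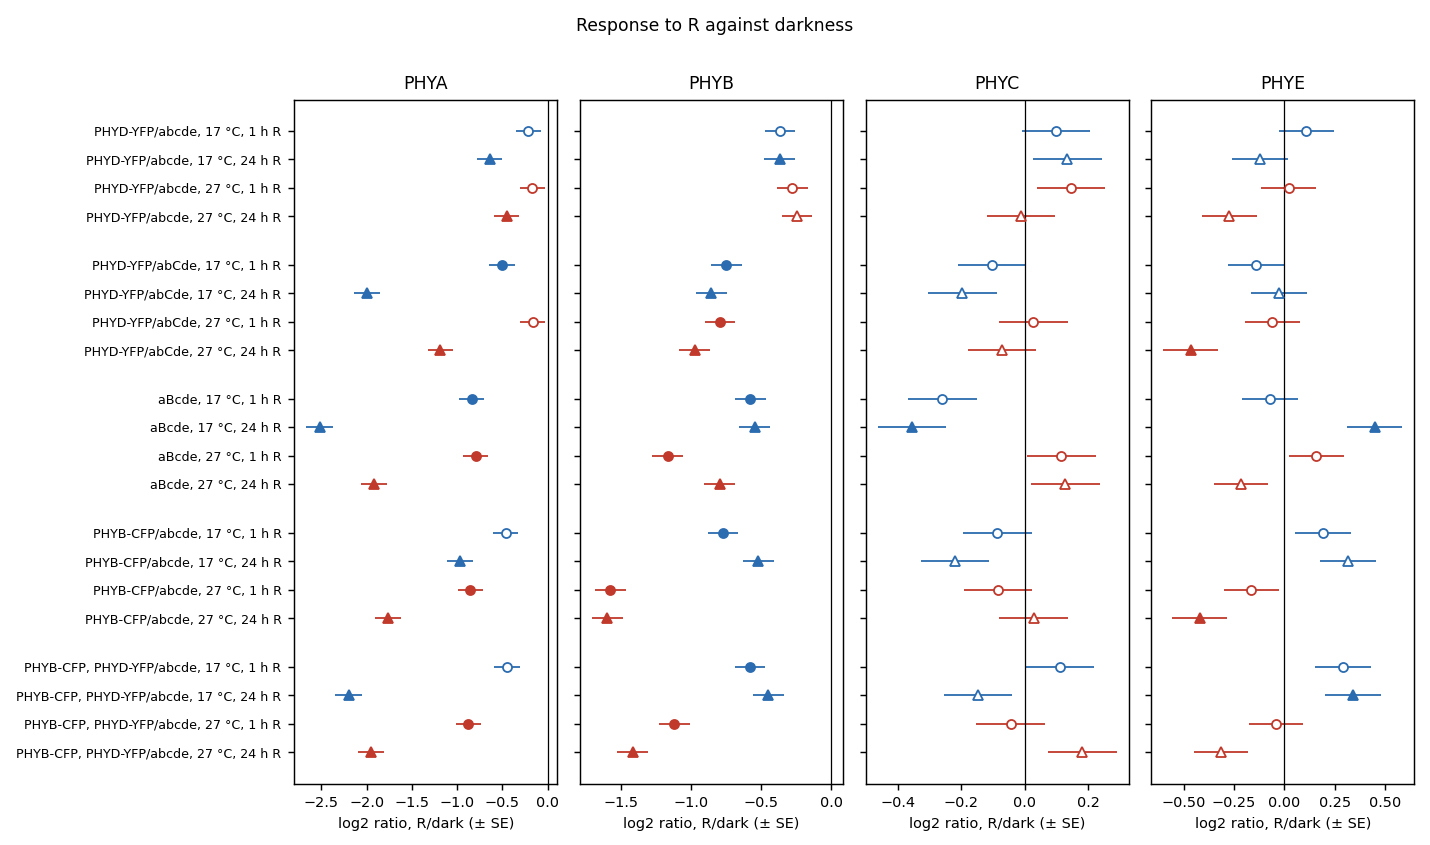
Response of PHYA, PHYB, PHYC and PHYE to R as log2 ratio to darkness ± SE, for each line, temperature and duration. Circles are 1 h R and triangles 24 h R, blue is 17 °C, red 27 °C, and filled symbols passed the test. The PHYA and PHYB points lie left of 0 throughout, and the PHYC and PHYE points lie on both sides of it.

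How far PHYA fell differed between lines, and this was tested as a difference of responses in the same model. Where PHYC was intact, the log2 response to 24 h R was lower by 1.36 than in PHYD-YFP/abcde at 17 °C (-1.36 ± 0.20, edgeR adjusted p = 8.58e-07) and by 0.73 at 27 °C (-0.73 ± 0.20, adjusted p = 0.0294). PHYD-YFP/abCde also holds more PHYD-YFP transcript than PHYD-YFP/abcde, so the PHYC allele and the transgene level cannot be told apart here. The call at 27 °C was lost without each replicate number in turn (adjusted p 0.0864 to 0.275), and that at 17 °C held. PHYB-CFP/abcde had a weaker PHYA response than aBcde at 17 °C (1.55 ± 0.20, adjusted p = 6.7e-08), and at 27 °C the difference was 0.15 ± 0.20 and was not called. At 17 °C the fall was deeper in the line with both transgenes than in PHYB-CFP/abcde (-1.23 ± 0.20, adjusted p = 3.46e-05). This call was lost without replicate 2 (0.112), and the difference at 27 °C was -0.18 ± 0.20. The line with both transgenes also held more PHYB at 17 °C (596 against 460 CPM in darkness). Its dark PHYA at 17 °C was higher too (1072 against 830 CPM), which was not called. PHYD-YFP and these other differences cannot be told apart here. Of 12 differences of responses between lines, 4 were called for PHYA. The share of all tested genes called was 0.759, 6.45 and 0% for 1 h R at 17 °C and 0, 0 and 0.401% at 27 °C, for PHYD-YFP/abCde against PHYD-YFP/abcde, PHYB-CFP/abcde against aBcde, and the line with both transgenes against PHYB-CFP/abcde. For 24 h R they came to 4.66, 4.62 and 5.42% (17 °C) and 2.23, 0.101 and 0.00483% (27 °C).

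The response of PHYA to 24 h R also differed between the temperatures in 3 lines. It was weaker at 27 °C in PHYD-YFP/abCde (0.81 ± 0.20, edgeR adjusted p = 0.00203) and aBcde (0.60 ± 0.20, adjusted p = 0.0372), and stronger at 27 °C in PHYB-CFP/abcde (-0.80 ± 0.20, adjusted p = 0.00488). Without replicate 2 none of the 3 calls held (0.168, 0.401 and 0.28). In PHYD-YFP/abcde the difference was 0.19 ± 0.20 and in the line with both transgenes 0.25 ± 0.20, and neither was called. Of all tested genes, 0.0145, 0.198, 4.15, 0.377 and 1.46% were called for the temperature dependence of the response to 1 h R in the line order. For 24 h R the shares were 1.28, 14.1, 10.3, 8.84 and 7.52%.

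PHYA was higher at 27 °C than at 17 °C in darkness in 4 lines, by 1.9, 1.68, 1.35 and 1.35 times in the 4 lines that come first in the line order. The calls of aBcde and PHYB-CFP/abcde were lost without replicate 2 (edgeR adjusted p = 0.144 and 0.182). In the line with both transgenes the ratio in darkness was 1.1 (0.913 to 1.33) and was not called. After 24 h R it reached 2.96 in PHYD-YFP/abCde (edgeR adjusted p = 9.63e-15), where the 27 °C libraries of 439 to 569.6 CPM lay far above the 17 °C libraries of 167 to 176 CPM. PHYB-CFP/abcde had a lower level at 27 °C after 24 h R (ratio 0.778, adjusted p = 0.0265), a call that was lost without replicate 1 (0.108) or 2 (0.214). The line with both transgenes was also lower at 27 °C after 1 h R, which was not called. Its libraries there had 610.3 to 665.3 CPM at 27 °C and 701.4 to 870.5 CPM at 17 °C. PHYA was called higher at 27 °C in 11 of 15 comparisons and lower in 1, and 7 of the 12 calls held without each replicate number. About 1 gene in 2 of all tested was called too, in either direction, and the count is to be read against that. The shares in the line order were 53.3, 57.9, 54.5, 52.2 and 49.5% in darkness. After 1 h R they were 49.6, 53.8, 52.4, 51.9 and 48.7%, and after 24 h R 53.3, 51, 52.7, 48.4 and 49.9%.

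Other transcripts moved between the temperatures in the same libraries. PORA, which serves chlorophyll synthesis in etiolated seedlings, had a median of 2130 CPM at 17 °C and 67.7 CPM at 27 °C. The seed storage protein genes CRA1 and CRU3 had medians of 11.9 and 44.8 CPM at 17 °C and of 179.6 and 376.6 CPM at 27 °C. LHCB1.3, a light-harvesting protein gene, had medians of 2408 and 105.5 CPM at 17 and 27 °C. Of 12 tissue markers followed, 6 had a higher median at 27 °C and 6 at 17 °C, and COBL9, a marker of root hairs, had a median of 0 at 27 °C. The count at 27 °C includes the flower genes AG and AP3, whose medians there were only 0.061 and 0.274 CPM. PORA and the genes of greening tissue (LHCB1.3, RBCS1A and LHCB2.1) were all higher at 17 °C. The seed genes (CRA1, CRU3 and OLEO1) were all higher at 27 °C. The part of such differences in the temperature ratios of PHYA, PHYB and PHYE was not tested.

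In darkness PHYA differed little between lines. PHYD-YFP/abCde and PHYD-YFP/abcde had ratios of 1.01 and 0.896 at 17 and 27 °C, aBcde and PHYD-YFP/abcde 1.17 and 0.832, and PHYB-CFP/abcde and aBcde 1.04 and 1.04, and none of these was called. The exception was the line with both transgenes at 17 °C, at 1.57 times PHYD-YFP/abcde (edgeR adjusted p = 0.000812, and 0.0908 without replicate 2). After 24 h R, aBcde had 0.317 and 0.301 of the level of PHYD-YFP/abcde at 17 and 27 °C, and PHYD-YFP/abCde 0.394 and 0.539, all 4 called. PHYB-CFP/abcde was 3.05 times aBcde at 17 °C after 24 h R (adjusted p = 2.76e-14) and 1.16 times at 27 °C, the latter not called. PHYA was called in 14 of 30 comparisons between lines, 4 higher and 10 lower in the first line named. The share of all tested genes called was, for darkness, 1 h R and 24 h R at 17 °C and then at 27 °C, 1.83, 12.4, 19.4, 4.01, 8.38 and 15.3% between PHYD-YFP/abCde and PHYD-YFP/abcde. It was 11, 47.6, 24.1, 9.39, 20.5 and 26.9% between aBcde and PHYD-YFP/abcde, and 1.87, 28.6, 15.2, 2.06, 2.38 and 2.08% between PHYB-CFP/abcde and aBcde. Between the line with both transgenes and PHYB-CFP/abcde it was 5.55, 4.05, 10.7, 3.35, 9.88 and 2.26%, and between that line and PHYD-YFP/abcde 11.3, 17.9, 14.8, 6.85, 18 and 18.3%.

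PHYB, which encodes the main photoreceptor of R in seedlings, was read from a mutant gene in both PHYD-YFP lines without PHYB-CFP, from the intact gene in aBcde, and from mutant gene plus PHYB-CFP in the remaining lines. In darkness at 17 °C it had 82.7, 85.0 and 85.2 CPM in PHYD-YFP/abcde, 98.9, 91.6 and 83.5 CPM in PHYD-YFP/abCde and 138, 130.04 and 126 CPM in aBcde. PHYB-CFP/abcde had 466, 452 and 462 CPM and the line with both transgenes 559.9, 641 and 587 CPM. The PHYB-CFP lines did not overlap with the others, and aBcde lay above both lines with the mutant gene alone. In darkness at 27 °C the levels were 112, 106 and 120.0 CPM, 143, 126 and 137 CPM and 179, 166 and 155 CPM in the lines without PHYB-CFP, in the line order. They were 1367, 1322 and 1423 CPM in PHYB-CFP/abcde and 1552, 1637 and 1534 CPM in the line with both transgenes, the highest of any group.

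PHYB-CFP/abcde exceeded aBcde 3.5-fold in darkness, 3.05-fold after 1 h R and 3.56-fold after 24 h R at 17 °C, and 8.21-, 6.18- and 4.71-fold at 27 °C. All 6 comparisons were called and held without each replicate number. The line with both transgenes exceeded PHYD-YFP/abcde 6.09- to 13.9-fold over the 6 conditions, all called. It also lay above PHYB-CFP/abcde, by 1.3, 1.48 and 1.36 times at 17 °C and 1.15, 1.58 and 1.3 times at 27 °C in darkness, after 1 h R and after 24 h R. Of these, all but darkness at 27 °C were called, and the calls of 1 h R alone held without each replicate number. Native PHYB of aBcde was 1.56, 1.35 and 1.38 times the mutant gene of PHYD-YFP/abcde at 17 °C and 1.48 times in darkness at 27 °C, all 4 called, of which 1 h R at 17 °C was lost without replicate 1 (edgeR adjusted p = 0.0519). At 27 °C it was 0.796 times after 1 h R and 1.01 times after 24 h R. The former was called lower, but not without replicate 2 (0.146) or 3 (0.17), in a fit of its 6 libraries (0.115) or without the 10 libraries of high PHYD described below (0.479).

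Between PHYD-YFP/abCde and PHYD-YFP/abcde, PHYB had ratios of 0.723 to 1.2. It was called lower in PHYD-YFP/abCde after 24 h R, at 0.772 at 17 °C and 0.723 at 27 °C, and the call at 17 °C was lost without replicates 1 or 2 (edgeR adjusted p = 0.112 and 0.11). PHYD was 2.21 to 3.58 times higher in the first of these lines, and the part of shared reads in the PHYB levels was not tested.

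PHYB was lower after R than in darkness in every line, and the difference passed the test in 17 of 20 comparisons. After 24 h R at 17 °C the levels were 62.0, 70.8 and 63.2 CPM in PHYD-YFP/abcde, 49.4, 53.7 and 48.2 CPM in PHYD-YFP/abCde and 81.7, 91.7 and 96.5 CPM in aBcde. They were 315, 337 and 310.1 CPM in PHYB-CFP/abcde and 425, 413 and 472 CPM in the line with both transgenes. At 27 °C after 24 h R they were 100.2, 90.8 and 95.1 CPM, 72.8, 71.5 and 62.6 CPM and 99.9, 94.1 and 93.9 CPM in the lines without PHYB-CFP. None of the irradiated libraries reached the dark ones of its line and temperature. PHYB-CFP/abcde fell to 508, 410.4 and 437 CPM and the line with both transgenes to 562, 585 and 620.3 CPM at 27 °C, values that overlap with those of the same lines in darkness at 17 °C. With 1 h R included, the 3 libraries after R lay below the 3 dark libraries in 20 of 20 comparisons.

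The ratios of PHYB after 1 h R to darkness were 0.776, 0.595, 0.67, 0.585 and 0.669 at 17 °C, and at 27 °C 0.825, 0.576, 0.445, 0.335 and 0.46, in the line order. After 24 h R they were 0.775, 0.552, 0.684, 0.697 and 0.732 at 17 °C, and at 27 °C 0.844, 0.509, 0.575, 0.33 and 0.374. These 17 calls stand against the background shares given for PHYA, and 14 of them held without each replicate number. The 3 comparisons not called all belong to PHYD-YFP/abcde, and the 1 call in this line, after 24 h R at 17 °C (edgeR adjusted p = 0.0173), was lost without each replicate number (0.0537 to 0.238). The largest falls were those of the PHYB-CFP lines at 27 °C, to 0.335 and 0.33 of the dark level in PHYB-CFP/abcde after 1 and 24 h R, with adjusted p of 1.33e-18 and 1.51e-19. A comparison between PHYD-YFP/abCde and PHYD-YFP/abcde gave a difference of the log2 responses to 24 h R of -0.49 ± 0.16 at 17 °C (adjusted p = 0.054) and -0.73 ± 0.16 at 27 °C (0.00481, lost without replicates 1 or 2).

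Temperature moved PHYB most in the PHYB-CFP lines in darkness, where it was 2.98 times higher at 27 °C in PHYB-CFP/abcde (95% interval 2.56 to 3.46) and 2.64 times in the line with both transgenes (2.27 to 3.07). The dark ratio was 1.34, 1.48 and 1.27 in the lines without PHYB-CFP, in the line order. In both PHYD-YFP lines without PHYB-CFP it was 1.37 to 1.46 after R. Intact PHYB of aBcde had ratios of 0.843 (0.726 to 0.979) after 1 h R and 1.07 (0.919 to 1.24) after 24 h R, neither called. In the PHYB-CFP lines the ratio shrank to 1.71 and 1.82 after 1 h R and to 1.41 and 1.35 after 24 h R. PHYB was called higher at 27 °C in 13 of 15 comparisons, and 12 of these calls held without each replicate number, where 48.4 to 57.9% of all tested genes were called in either direction.

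The fall of PHYB with R was deeper at 27 °C in some lines. The log2 responses at 27 and 17 °C differed by -1.08 ± 0.15 in PHYB-CFP/abcde (edgeR adjusted p = 9.28e-07) and by -0.97 ± 0.15 in the line with both transgenes (8.23e-06) for 24 h R, and both held without each replicate number. For 1 h R the difference was -0.59 ± 0.16 in aBcde (adjusted p = 0.018) and -0.80 ± 0.15 in PHYB-CFP/abcde (0.00252), and neither call held without replicates 1 or 2. In PHYD-YFP/abcde and PHYD-YFP/abCde the differences were 0.12 ± 0.16 and -0.12 ± 0.16 for 24 h R and were not called. For 24 h R at 27 °C the response of PHYB-CFP/abcde was lower than that of aBcde by 0.80 on the log2 scale (-0.80 ± 0.15, adjusted p = 0.0084), where 0.101% of all tested genes were called, but this call was lost without each replicate number (0.0938 to 0.657).

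PHYC, whose product can pair with other type II phytochromes, was the steadiest of the 5 genes. Over all 90 libraries it ran from 27.4 to 54.8 CPM with a median of 40.1 CPM. In darkness at 17 °C its means were 41.4 ± 6.12, 40.1 ± 2.91, 40.5 ± 1.41, 39.0 ± 3.55 and 45.4 ± 2.19 CPM (mean ± SD, n = 3 each) in the line order. PHYD-YFP/abCde, the one line with an intact PHYC gene, did not stand out. Its ratios to PHYD-YFP/abcde were 0.969, 0.842 and 0.77 at 17 °C, and at 27 °C 0.985, 0.907 and 0.945 in darkness, after 1 h R and after 24 h R. The 1 called among them, 0.77 after 24 h R at 17 °C (95% interval 0.665 to 0.892), was lower in the line with the intact gene and was lost without replicates 1 or 2. The intervals of the other 5 lay between 0.727 and 1.14.

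R changed PHYC in 1 of 20 comparisons, against the background shares given for PHYA, to 0.781 of the dark level in aBcde after 24 h R at 17 °C (edgeR adjusted p = 0.00558), where libraries of 29.02, 38.6 and 27.4 CPM lay below dark libraries of 41.4, 38.9 and 41.3 CPM. This call was lost without replicates 1 or 3. The ratios of the other 19 lay between 0.834 and 1.13. Between temperatures PHYC was called in 4 of 15 comparisons, in opposite directions, where 48.4 to 57.9% of all tested genes were called. It was higher at 27 °C after 24 h R in aBcde (1.26) and PHYB-CFP/abcde (1.2), and lower in the line with both transgenes in darkness (0.831) and after 1 h R (0.745). The last of these held without each replicate number and the other 3 did not. In this line PHYC had 41.3, 51.0 and 54.8 CPM at 17 °C and 36.1, 37.9 and 35.6 CPM at 27 °C after 1 h R. Between lines PHYC was called in 5 of 30 comparisons, with ratios from 0.697 to 1.33, where 1.83 to 47.6% of all tested genes were called.

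PHYE, which encodes a type II phytochrome related to phyB and phyD and is read from the phyE-1 allele in all lines, was higher at 27 °C in most comparisons, whereas few of its responses to R passed the test. In darkness its means at 17 °C were 24.3 ± 2.52, 22.7 ± 2.23, 20.9 ± 2.80, 20.1 ± 1.15 and 23.7 ± 1.33 CPM (mean ± SD, n = 3 each) in the line order. At 27 °C they were 40.4 ± 4.79, 39.0 ± 4.52, 38.4 ± 2.75, 41.2 ± 2.12 and 47.1 ± 0.275 CPM. No library overlapped between the temperatures in darkness, and the ratios were 1.66, 1.72, 1.84, 2.05 and 1.99. After 1 h R they were 1.56, 1.82, 2.16, 1.6 and 1.58, and after 24 h R 1.5, 1.27, 1.16, 1.23 and 1.26. PHYE was called higher at 27 °C in 13 of 15 comparisons, and 11 of these calls held without each replicate number. The 2 not called were aBcde and PHYB-CFP/abcde after 24 h R. These counts are to be read against the 48.4 to 57.9% of all tested genes that were called between temperatures in either direction.

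In response to R, PHYE was called in 4 of 20 comparisons, all 4 among the 10 comparisons of 24 h R, where 7.28 to 43.7% of all tested genes were called, so the count is near the background. It was higher than in darkness at 17 °C in aBcde (1.36, edgeR adjusted p = 0.00634) and the line with both transgenes (1.27, 0.0464). At 27 °C it was lower in PHYD-YFP/abCde (0.724, 0.00634) and PHYB-CFP/abcde (0.747, 0.0128). None of the 4 calls held without each replicate number. The log2 response to 24 h R was lower at 27 than at 17 °C in aBcde (-0.66 ± 0.19, adjusted p = 0.0172), PHYB-CFP/abcde (-0.74 ± 0.19, 0.0095) and the line with both transgenes (-0.65 ± 0.19, 0.0249), the 3 lines with intact PHYB or PHYB-CFP. In PHYD-YFP/abcde and PHYD-YFP/abCde it differed by -0.15 ± 0.19 and -0.44 ± 0.19 and was not called, and whether the lines differ from each other in this was not tested. These 3 calls, too, were lost when 1 replicate number was left out. Between lines PHYE was called in 2 of 30 comparisons, at 0.759 and 1.34 times, against the same 1.83 to 47.6% as for PHYC.

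**Figure D3:**
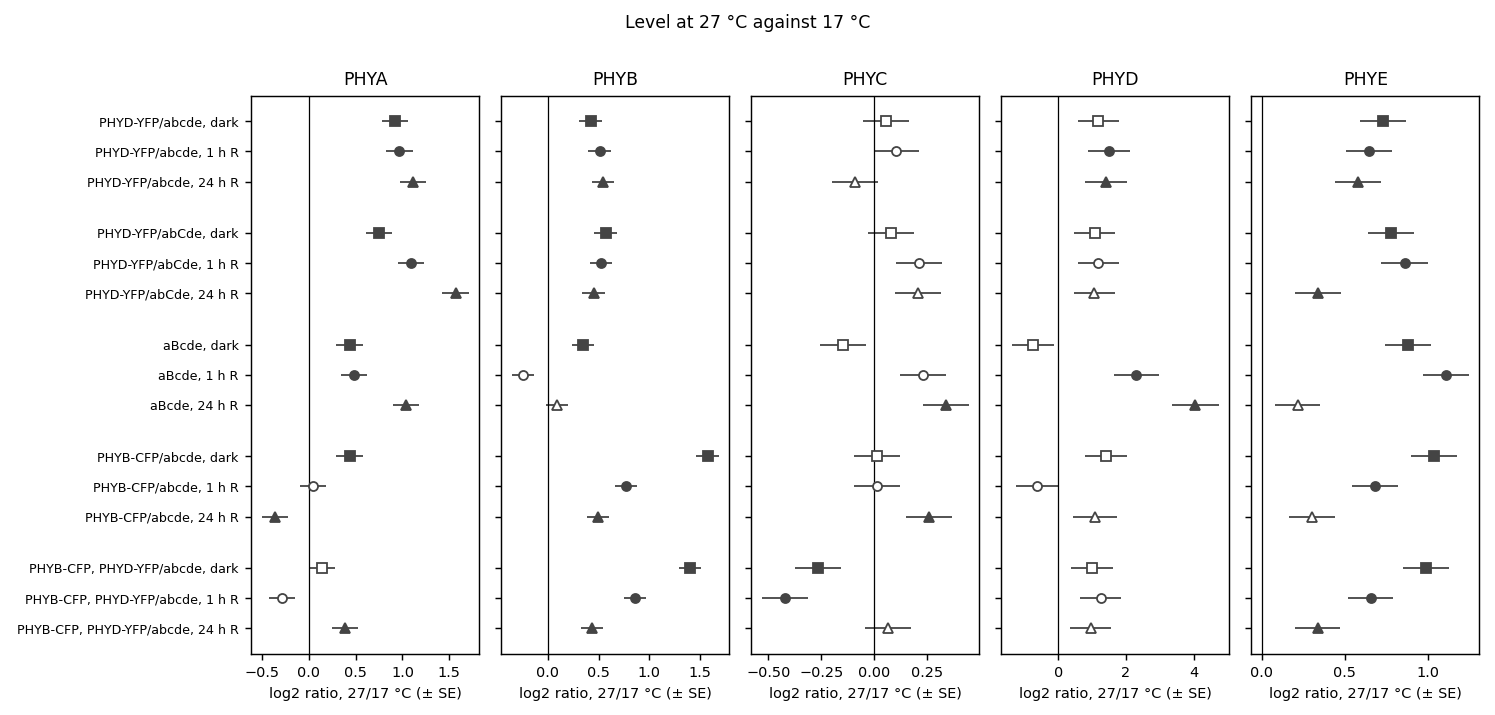
Level at 27 °C against 17 °C of each phytochrome gene as log2 ratio ± SE, for each line in darkness (squares), after 1 h R (circles) and after 24 h R (triangles), from the model of all 90 libraries. Filled symbols passed the test. PHYE lies right of 0 in all 15 comparisons, PHYB moves most in darkness in the PHYB-CFP lines, and the wide bars of PHYD go with the libraries described for that gene.

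PHYD, which encodes the closest relative of phyB, stood far higher in the 3 lines with PHYD-YFP. In darkness at 17 °C it had 3852, 4222 and 5140.4 CPM in PHYD-YFP/abcde, 13861, 15858 and 16562 CPM in PHYD-YFP/abCde and 5422, 5848 and 5531 CPM in the line with both transgenes. At 27 °C in darkness it had 10869.7, 9840.4 and 9292 CPM, 36546, 31079 and 30068 CPM and 11511, 11576 and 10372 CPM in these lines. The lowest of all libraries with PHYD-YFP had 3852 CPM, and the highest without it 587.5 CPM. PHYD took up to 3.47% of all counted reads of a library. In lines without PHYD-YFP the PHYD reads come from the phyD-1 allele, and most of these libraries held 11.8 to 21.2 CPM. The line with both transgenes had 158 to 713 times the PHYD level of PHYB-CFP/abcde, and aBcde 0.0028 to 0.0194 of that of PHYD-YFP/abcde, all 12 called. Without the 10 libraries of high PHYD described next, the ranges were 271 to 713 times and 0.0013 to 0.00397.

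Of the 36 libraries without PHYD-YFP, 10 stood apart from their own group, with 31.9 to 587.5 CPM against a median of 16.6 CPM in the other 26. A library was counted here when its PHYD level was over 2 times the lowest library of its group, a criterion chosen after the values were seen. In aBcde these were replicate 1 in darkness at 17 °C (107 against 17.3 and 16.6 CPM), replicate 3 in darkness at 27 °C (47.9 against 17.4 and 18.9), replicates 1 and 3 after 1 h R at 27 °C (88.5 and 147 against 17.9) and replicates 1 and 2 after 24 h R at 27 °C (587.5 and 31.9 against 14.2). In PHYB-CFP/abcde they were replicate 2 in darkness and replicate 1 after 1 h R at 17 °C (44.2 and 39.2 CPM), and replicate 1 in darkness and after 24 h R at 27 °C (170.6 and 61.7 CPM). By this criterion at most 2 of the 3 libraries of a group can be counted. PHYB, in the same 10 libraries, was the highest of its group in 3, the lowest in 3 and between the others in 4. The cause of the high PHYD was not tested.

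**Figure D4:**
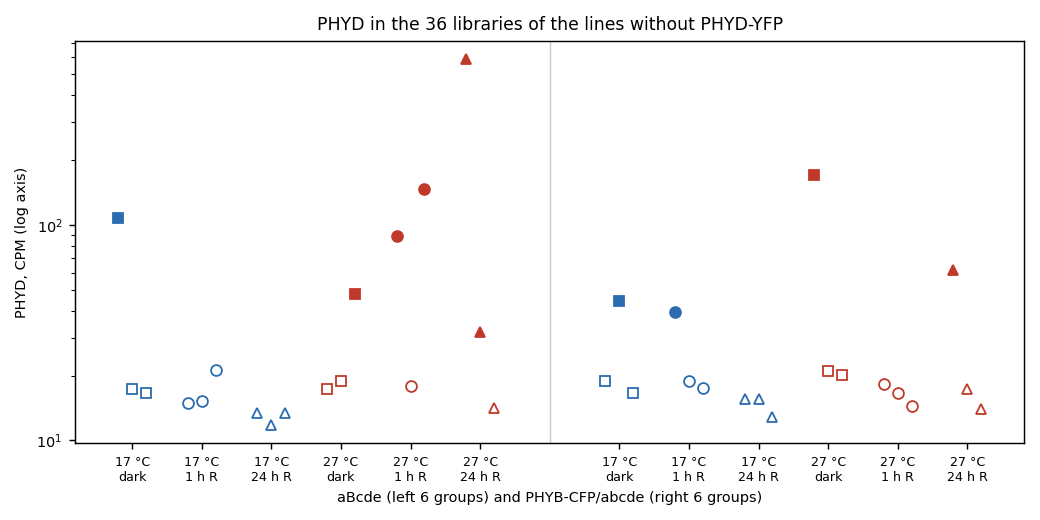
PHYD level in CPM (log axis) in the 36 libraries of aBcde (left) and PHYB-CFP/abcde (right), which carry no PHYD-YFP, by temperature and light. Filled symbols are the 10 libraries over 2 times the lowest of their group, up to 587.5 CPM, and open symbols are the other 26, at 11.8 to 21.2 CPM.

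These libraries widen the spread that the model assigns to PHYD, and with it the SE of PHYD in every line, to about 0.60 on the log2 scale. Without the 10 libraries the SE was 0.14 for comparisons among the PHYD-YFP lines, and the ratios there moved by less than 0.01. PHYD was higher at 27 than at 17 °C in all 3 lines with PHYD-YFP: the ratios in darkness, after 1 h R and after 24 h R were 2.27, 2.81 and 2.64 in PHYD-YFP/abcde, 2.11, 2.27 and 2.1 in PHYD-YFP/abCde and 1.99, 2.38 and 1.94 in the line with both transgenes. The 27 °C libraries lay above the 17 °C libraries in all 9 comparisons. With all libraries, 2 of the 9 were called, both in PHYD-YFP/abcde (edgeR adjusted p = 0.0384 after 1 h R and 0.0481 after 24 h R), and both were lost without replicates 2 or 3. Without the 10 libraries all 9 were called (largest adjusted p = 1.07e-07), where 52.6, 48.8 and 52.5%, 57.1, 53 and 50.1% and 48.4, 47.8 and 49.1% of all tested genes were called in these lines. The 10 libraries were left out by their PHYD level, which narrowed the spread of PHYD by choice. These 9 calls are therefore not read as tests. In fits restricted to the 6 libraries that a comparison needs, 8 of 9 were called, the exception being PHYD-YFP/abCde after 1 h R (adjusted p = 0.0709). Of all tested genes, 47.5, 49.7 and 53.6% were called in the fits of PHYD-YFP/abcde and 54.8, 32.4 and 37.1% in those of PHYD-YFP/abCde. In the line with both transgenes the shares were 54.6, 49.7 and 53.4%.

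PHYD-YFP/abCde had more PHYD transcript than PHYD-YFP/abcde in every condition, although both carry the same transgene. The ratios were 3.5, 3.58 and 2.78 at 17 °C, and at 27 °C 3.26, 2.9 and 2.21 in darkness, after 1 h R and after 24 h R, and no library overlapped. With all libraries 1 of these 6 was called, after 1 h R at 17 °C (edgeR adjusted p = 0.0391). Without the 10 libraries all 6 were (largest adjusted p = 2.03e-08), against 1.68, 11 and 18.4% of all tested genes at 17 °C and 3.78, 7.67 and 14.4% at 27 °C. The same choice of libraries narrowed the spread here, so these 6 calls are not read as tests either. In fits of the 6 libraries of a comparison alone, 5 of 6 were called. In the same order, 0.633, 0.0918 and 9.54% of all tested genes were called at 17 °C and 3.73, 12.4 and 10.5% at 27 °C. The exception was the 1 h R comparison at 17 °C, with an adjusted p of 0.315, where 19 genes in all were called. There replicate 3 of PHYD-YFP/abCde had 19751 CPM and its partners 13389 and 13046 CPM. The line with both transgenes and PHYD-YFP/abcde had ratios of 0.86 to 1.27, none called with or without the 10 libraries.

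Among the PHYD-YFP lines, the lowest ratios of PHYD after R to darkness were those of PHYD-YFP/abCde after 24 h R. PHYD-YFP/abCde went from 13861, 15858 and 16562 CPM in darkness to 9564, 13147 and 11824 CPM after 24 h R at 17 °C, and from 36546, 31079 and 30068 to 25519.6, 24471 and 22427 CPM at 27 °C. The irradiated libraries lay below the dark ones at both temperatures. The ratios, 0.746 and 0.741, were not called with all libraries and were called without the 10 libraries (edgeR adjusted p = 0.0154 and 0.0153, where 32.9 and 28.9% of all tested genes were called). Because the latter model left libraries out by their PHYD level, its calls are not read as tests. Fits of 6 libraries gave adjusted p of 0.186 and 0.0482. In PHYD-YFP/abcde the 4 ratios to darkness were 0.939 to 1.21, and in the line with both transgenes 0.843 to 1.05, none called in either model of the whole series. In fits of 6 libraries the latter line was called at 27 °C after 24 h R (ratio 0.849, adjusted p = 0.00944), where 34.4% of all tested genes were called.

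In the lines without PHYD-YFP, every PHYD call of a response to R, of temperature or of a difference between aBcde and PHYB-CFP/abcde was lost without the 10 libraries. With all libraries, PHYD in aBcde at 27 °C was 7.55 times the dark level after 24 h R (edgeR adjusted p = 0.000234) and 16.5 times the 17 °C level after 24 h R. Without them these ratios were 0.781 and 1.1, and the criterion for leaving libraries out was PHYD itself, so no test is read from these values. The ratio of 24 h R to darkness at 17 °C went from 0.273 to 0.76 in aBcde. In PHYB-CFP/abcde, PHYD after 1 h R at 27 °C went from 0.233 to 0.799 of the dark level.

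The likeness of other genes to each phytochrome gene was measured by the Pearson r over the 90 libraries, on log2 CPM from which the mean of each line was taken away. These points share temperature, light and depth, so r describes a shared pattern over conditions and carries no p. The genes most like PHYA were FLP1 (AT4G31380, r = 0.954, rho = 0.949), HFR1 (AT1G02340, r = 0.954, rho = 0.954) and AT5G57670 (r = 0.949, rho = 0.929). HFR1 encodes a transcription factor of phyA signaling that heterodimerizes with PIFs. For PHYB they were GAI (AT1G14920, r = 0.83, rho = 0.711), AT1G01260 (r = 0.824, rho = 0.797) and AT4G22190 (r = 0.805, rho = 0.779), of which GAI encodes a DELLA repressor of gibberellin signaling. PHYE was matched by AT2G42270 (r = 0.912, rho = 0.908), CLC-E (AT4G35440, r = 0.906, rho = 0.872) and AT2G33730 (r = 0.898, rho = 0.851). PHYC and PHYD had no close match: AT1G16270 (r = 0.546, rho = 0.527), LIG6 (AT1G66730, r = 0.538, rho = 0.517) and scpl17 (AT3G12203, r = 0.53, rho = 0.446) for PHYC, and NIP1;2 (AT4G18910, r = 0.621, rho = 0.694), AT3G44760 (r = 0.62, rho = 0.671) and AT5G54000 (r = 0.616, rho = 0.678) for PHYD. The r of PHYD includes the 10 libraries of high PHYD and was not computed without them. That of PHYB includes both PHYB-CFP lines, where the count sums mutant gene and transgene, and was not computed without these lines. Among the phytochrome genes themselves PHYA and PHYB were the most alike (r = 0.598), then PHYB and PHYE (r = 0.525), and PHYB and PHYC the least (r = 0.081).

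Beside the phytochrome genes, 5 genes that make the chromophore were followed: HY1, HO2, HO3 and HO4 for heme oxygenases, which open the heme ring, and HY2 for phytochromobilin synthase. Of these 5, between 0 and 4 were called after 24 h R in the 10 comparisons with darkness, against the background shares given for PHYA. At 17 °C every call was towards a higher level, and at 27 °C 4 of 5 lines had 1 gene called higher and 1 called lower. HO3 was called higher by 2-fold or more in 3 of 5 lines after 24 h R at 17 °C, at a low level of 0.267 to 6.78 CPM over all libraries, and also in 3 of 5 lines at 27 °C against 17 °C in darkness. HY2 was called lower by 2-fold or more at 27 °C in darkness in 3 of 5 lines, with log2 ratios of -1.87 to -0.57 over the 5, and its level was 2.21 to 23.2 CPM over all libraries.

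Of 14 listed genes for proteins that bind, modify or degrade phytochromes, 13 passed the filter, and AT4G34550 did not. After 24 h R between 4 and 10 of the 13 were called, where 7.28 to 43.7% of all tested genes were. LRB1, which encodes a substrate adapter of ubiquitin ligases that target phyB, was called lower after 24 h R at 17 °C in 5 of 5 lines, by 2-fold or more in 3, with log2 ratios of -1.53 to -0.70. MRL7 (AT4G28590) was called higher by 2-fold or more after 24 h R at 27 °C in 4 of 5 lines, at a level of 0.683 to 7.07 CPM, and lower by 2-fold or more at 27 °C in 3 of 5 lines both in darkness and after 1 h R. Between temperatures, 4 to 9 of the 13 were called. AT2G25760 was called higher at 27 °C by 2-fold or more in all 15 comparisons, with log2 ratios of 1.04 to 1.98. The same gene was called lower after 24 h R in all 10 comparisons with darkness, by 2-fold or more in 4 of 5 lines at 27 °C, where the log2 ratios were -1.21 to -0.52. AT3G13670 was called higher at 27 °C in all 15, by 2-fold or more in 4 of 5 lines in darkness. PHYB and PHYE were called higher in darkness in the same 5 comparisons, and the background is the 48.4 to 57.9% of genes given above.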

How the data were processed

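Whole seedlings of 5 lines gave 90 poly(A) RNA libraries. The authors checked reads with FastQC, trimmed them with Trimmomatic, aligned them to TAIR10 with STAR and deposited raw counts per gene from htseq-count. The settings for strand and for reads with several alignments are not given in the sources used here. From the counts, genes of the organelles (279) and of tRNA and rRNA (627) were removed, and a gene was kept where 23 of the 90 libraries (25%) or more had 5 counts or more, which left 20695 of 28775. Counts were fitted in edgeR 4.0.16 (R 4.3.3) with TMM scaling and a quasi-likelihood model of 30 group means, for 87 contrasts. Benjamini-Hochberg adjustment was done per contrast. DESeq2 1.42.0 and limma 3.58.1 served as alternatives, along with other size factors, filters, subsets of libraries and the replicate number as a block. The scripts were tested on simulated data. Totals were 15010386 to 41124234 counts per library.

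The 5 genes, the gene lists and the tests were chosen with earlier results of these data known. Besides the 5 genes, the rule named the 3 genes with the highest Pearson r to each over 90 libraries, on log2 CPM with a prior count of 2 and line means taken away, and those genes of both companion lists that were called at 2-fold or more after 24 h R or between temperatures in 3 or more lines. PIL1 and the tissue markers were read as checks. The alternative without 10 libraries of high PHYD was chosen after the data had been seen. Samples were grouped by line, temperature and light as labelled. Sequences came from the TAIR10.1 genome and its RefSeq annotation, and 27382 identifiers of the table matched a gene there.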

Additional observations from a re-analysis of the deposited data

Results flagged for a closer look

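The temperature dependence of the response to R was tested as an interaction (the log2 response at 27 minus that at 17 °C) in 10 comparisons for each gene, and 13 of 50 passed the edgeR test, where 0.0145 to 14.1% of all tested genes did. In aBcde these were PHYA (0.60 ± 0.20), PHYC (0.48 ± 0.15), PHYD (4.79 ± 0.92) and PHYE (-0.66 ± 0.19) for 24 h R, and PHYB (-0.59 ± 0.16) and PHYD (3.05 ± 0.90) for 1 h R. In PHYB-CFP/abcde they were PHYA (-0.80 ± 0.20), PHYB (-1.08 ± 0.15) and PHYE (-0.74 ± 0.19) for 24 h R and PHYB for 1 h R (-0.80 ± 0.15). In the line with both transgenes they were PHYB (-0.97 ± 0.15) and PHYE (-0.65 ± 0.19) for 24 h R. In PHYD-YFP/abCde PHYA passed for 24 h R (0.81 ± 0.20). The PHYB calls for 24 h R in both PHYB-CFP lines held without each replicate number, and the other 11 did not.

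The difference of the response to R between lines was tested in 12 comparisons for each gene, and 7 of 60 passed, all for 24 h R, where 0 to 6.45% of all tested genes passed over the 12 comparisons. Between PHYD-YFP/abCde and PHYD-YFP/abcde these were PHYA at 17 °C (-1.36 ± 0.20), and PHYA (-0.73 ± 0.20) and PHYB (-0.73 ± 0.16) at 27 °C. Between PHYB-CFP/abcde and aBcde they were PHYA at 17 °C (1.55 ± 0.20), and PHYB (-0.80 ± 0.15) and PHYD (-4.11 ± 0.90) at 27 °C. Between the line with both transgenes and PHYB-CFP/abcde it was PHYA at 17 °C (-1.23 ± 0.20). Of these, the PHYA differences at 17 °C between PHYD-YFP/abCde and PHYD-YFP/abcde and between PHYB-CFP/abcde and aBcde held without each replicate number. The 3 PHYD differences above rest on libraries of high PHYD level and were lost without them.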

How the results depend on the processing

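Of 166 calls among 435 tests of the 5 genes, 99 held in every alternative run and 105 without each replicate number. Among the 99, 12 were of PHYD, all between a line with PHYD-YFP and one without it. Calls of PHYB between lines with and without PHYB-CFP held in every run too. The construction of the lines sets such differences in part, so these calls check the labels. DESeq2 kept 162, RLE size factors 157, limma on quantile-normalized values 143, no filter 160 and a mean count of at least 50 kept 164. Fits of 6 libraries kept 126 of 146 and a model of 54 libraries of 3 lines kept 77 of 86. Leaving out a replicate number kept 120 to 141, and leaving out the 10 libraries of high PHYD kept 139. Replicate numbers did not pair the samples (mean correlation of same-numbered deviations 0.003). With the replicate block 164 calls were kept and 167 made, and with the block within line and temperature 57 of 60, the 3 lost all being PHYD.

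With a 2-fold minimum, calls went from 40 to 15 for R, 46 to 12 for temperature, 60 to 32 between lines, 13 to 3 for the temperature dependence of the R response and 7 to 4 for its difference between lines. The temperature dependence gave 4 calls in the 54 libraries, where all libraries gave 7 on the same tests, and 5 without the libraries of high PHYD. Without 1 replicate number, or without replicate 3 of PHYD-YFP/abCde after 1 h R at 17 °C, calls ranged from 30 to 39 for R, 39 to 47 for temperature, 45 to 60 between lines, 4 to 14 for the temperature dependence and 2 to 8 for the difference between lines. All reversals were of PHYD in lines without PHYD-YFP. The log2 response to 24 h R of aBcde at 27 °C was -0.53 without replicate 1, 4.11 without replicate 3 and -0.36 without the high libraries. PHYB-CFP/abcde against aBcde at 27 °C after 24 h R was 0.15 without the high libraries, and the temperature dependence of the 1 h response in aBcde -0.031. The temperature dependence of the 24 h response in aBcde ranged from -0.11 without replicate 1 to 6.40 without replicate 3, and the difference of that response between PHYB-CFP/abcde and aBcde at 27 °C from 0.14 to -5.35. These reversals follow from the libraries left out.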
